A study of Mus musculus with 2 samples.

Results

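The 46 genes described here encode the proteins that join neighbouring cells: cadherins, protocadherins, claudins, connexins, the tight junction scaffolds, desmosome proteins and Epcam. They were taken by symbol from a table of 14500 genes, as every gene named Cdh, Cldn, Gja to Gjd or Tjp with a number, every Pcdh gene, and 8 further genes (Epcam, Ocln, F11r, Jup, Dsp, Dsg2, Dsc2 and Pkp2). Mouse embryonic stem cells of the line 46C, a line with a green fluorescent protein reporter in the Sox1 locus, were grown on gelatin in serum medium with LIF, at passages 21 to 24. RNA was sequenced from cells that overexpressed the homeobox transcription factor Gbx2 (library PB-Gbx2) and from cells transfected with the empty vector (library PB). Each group has 1 library, so no difference could be set against replicate error, and no p-value was computed. In the labels each library's source name is that of the opposite group to its title. Groups here follow the titles, so every direction below would be the opposite if the source names were correct. Gbx2 itself stood at 1178 in PB-Gbx2 and 345 in PB, 3.41-fold higher in the library whose title names it. The same naming rule finds 145 protein-coding genes in the RefSeq gene list, a count that leaves out Pcdhgb8. The 46 genes have a row in the table, and genes without a row were not analysed here.

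Embryonic stem cells grow as compact colonies held together mainly by E-cadherin, the product of Cdh1, whose cytoplasmic tail binds catenins and, through them, actin. Claudins form the strands of tight junctions, Tjp proteins tie those strands to the cytoskeleton, connexins form the channels of gap junctions, and desmosomal cadherins with plakins and plakophilins anchor intermediate filaments. Protocadherins are cadherin relatives known chiefly from the nervous system, where the clustered genes give neurons distinct surface identities.

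The level of a gene is a value that the authors normalized and rounded to a whole number, and it is not corrected for gene length. Log2 ratios are PB-Gbx2 over PB after adding 1 to each level. Genes with a log2 ratio of at least 1 or at most -1 are called at least 2-fold higher or lower.

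Cdh1 and the catenin genes Ctnna1 and Ctnnd1 had similar levels in both libraries, all 7 connexins were higher in PB-Gbx2, and Cldn7 and Tjp3 were lower. Most of the larger ratios belonged to genes at low levels. In PB-Gbx2, 7 of the 46 genes were at least 2-fold higher, against a background of 5.14% of all genes, and 4 were at least 2-fold lower, against 5.26%. The higher ones include Cdh4, Cdh9, Cdh13, Pcdhga1, Cldn19 and Gja4. The 4 were Tjp3, Cldn7, Cldn9 and Cldn20. The median log2 ratio of the 46 was 0.10, and that of all genes was 0.

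These counts differed between low and high levels. Of the 46, 22 stayed below a level of 100 in both libraries, and 8 of those 22 were past 2-fold in either direction, where 27.5% of all genes at such levels were past it. The other 24 reached 100 in at least 1 library, and 3 of them passed 2-fold (1 higher, and Tjp3 and Cldn7 lower), against 4.83% of all genes at such levels (2.46% higher and 2.37% lower). A ratio of at least 1.5-fold in either direction was reached by 19 of the 46, against 23.8% of all genes, and by 6 of the 24, against 15.5% of all genes at such levels. Among the 10 that reached 1000, none passed 2-fold (1.98% of all genes at such levels), and 2 passed 1.5-fold, Pkp2 and Epcam, both lower in PB-Gbx2, against 8.63% of all genes at such levels. Ratios of genes below 100 in both libraries had an SD of 0.996 on the log2 scale over all genes, against 0.35 for genes that reached 1000.

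**Figure D1:**
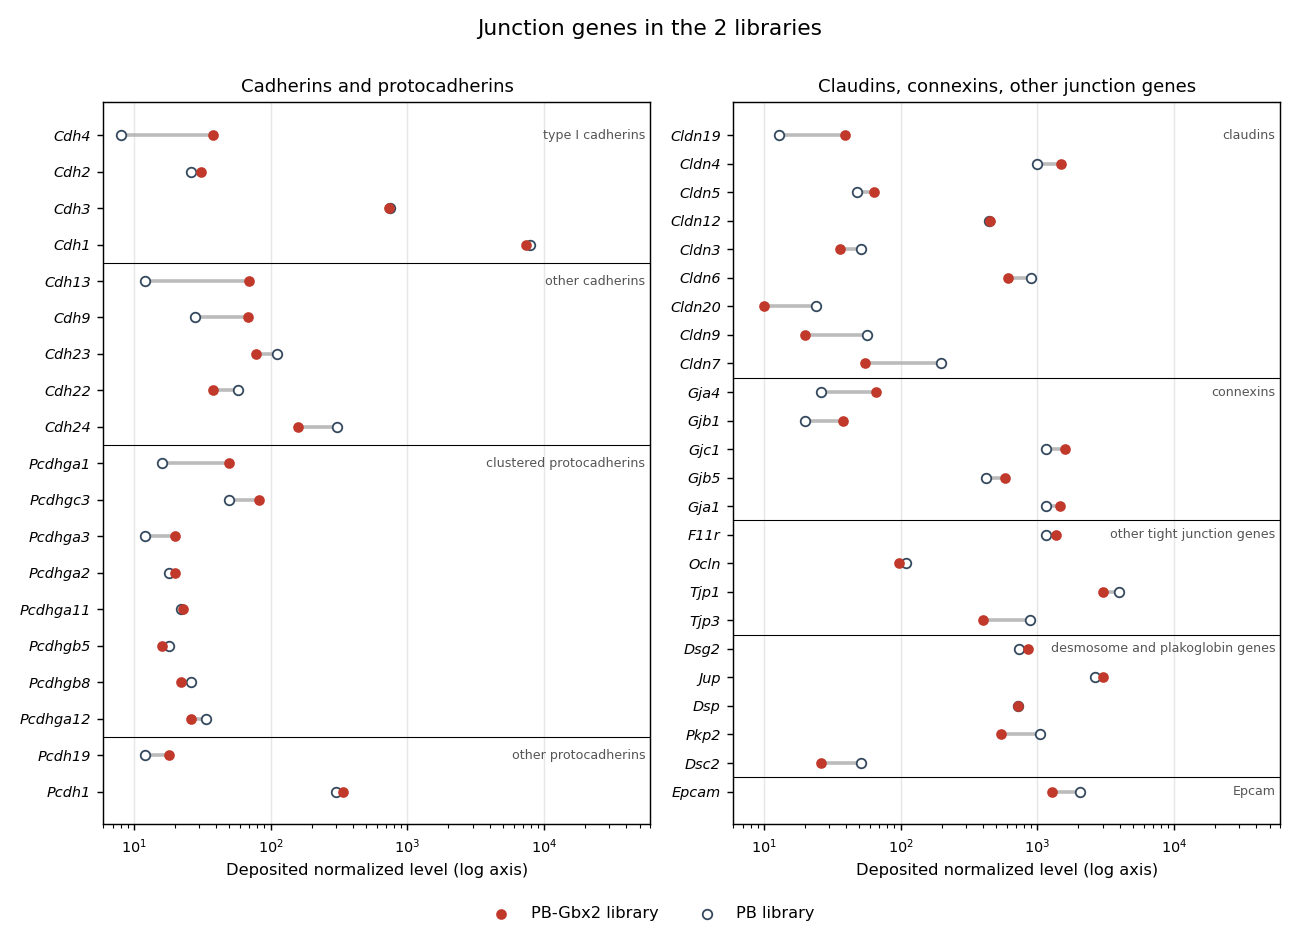
Deposited normalized level of 43 of the 46 junction genes on a log axis, with filled points for the PB-Gbx2 library, open points for the PB library and a line joining both, grouped by class. The points of Cdh1, at 7339 in PB-Gbx2 and 7932 in PB, nearly touch, every connexin shown has the filled point on the right, and Cldn7 has it far to the left of the open point.

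Cdh1 had a level of 7339 in PB-Gbx2 and 7932 in PB, 1.08-fold lower. Cdh3, which encodes P-cadherin and is the next gene to Cdh1 on chromosome 8, had 738 in PB-Gbx2 and 752 in PB, 1.02-fold lower. Cdh2, the N-cadherin gene that marks mesenchymal and neural cells, had 31 in PB-Gbx2 and 26 in PB. Each of these 3 genes thus had similar levels in both libraries, but both levels of Cdh2 lie below 100, where ratios scatter most.

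Divided by the length of the longest annotated transcript, Cdh1 stood at 1657 per kilobase in PB-Gbx2 and 1791 in PB, Cdh3 at 168 in PB-Gbx2 and 172 in PB, and Cdh2 at 6.40 in PB-Gbx2 and 5.37 in PB. Per length, E-cadherin RNA was therefore the highest of the listed type I cadherins in both libraries. Cdh4, the R-cadherin gene of developing retina and brain, was the type I member past 2-fold, with a level of 38 in PB-Gbx2 and 8 in PB (4.75-fold higher). Both of its levels lie below 100, where ratios scatter most.

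The 5 other cadherins were split. Cdh13, whose product T-cadherin is tied to the membrane by a lipid anchor and lacks a cytoplasmic tail, had a level of 70 in PB-Gbx2 and 12 in PB, 5.83-fold higher and the largest ratio among the 46 genes. Cdh9, a type II cadherin of neurons, had 68 in PB-Gbx2 and 28 in PB (2.43-fold higher). In the other direction, Cdh24, a type II cadherin, had 158 in PB-Gbx2 and 305 in PB, 1.93-fold lower and just short of the 2-fold mark. Cdh23, which forms part of the tip links of inner ear hair cells, had 78 in PB-Gbx2 and 112 in PB, and Cdh22 had 38 in PB-Gbx2 and 58 in PB. The median log2 ratio of the 5 was -0.52, with 2 genes above 0 and 3 below.

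RefSeq lists 57 protein-coding clustered protocadherin genes, a count that leaves out Pcdhgb8. With Pcdhgb8, 8 clustered genes had a row, and all 8 belong to the gamma cluster on chromosome 18. Their levels ran from 16 to 82 in PB-Gbx2 and from 12 to 50 in PB. Pcdhgc3 had 82 in PB-Gbx2 and 50 in PB. Pcdhga1, the member past 2-fold, had 50 in PB-Gbx2 and 16 in PB (3.12-fold higher). The other 6 were Pcdhga2, Pcdhga3, Pcdhga11, Pcdhga12, Pcdhgb5 and Pcdhgb8, all at 34 or less in both libraries. Transcripts of this cluster share their last exons, so the split of reads among these 8 genes is uncertain. The median log2 ratio was 0.10, with 5 genes above 0 and 3 below.

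Outside the clusters, Pcdh1 had 340 in PB-Gbx2 and 300 in PB, 1.13-fold higher. Pcdh19, an X-linked gene that is known for a form of epilepsy in humans, had 18 in PB-Gbx2 and 12 in PB. Pcdh1 was the sole protocadherin to reach 100.

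Claudins went in both directions. Cldn7 had a level of 55 in PB-Gbx2 and 196 in PB, 3.56-fold lower, the largest ratio among the 24 members that reached 100. Cldn4 had 1486 in PB-Gbx2 and 992 in PB, 1.5-fold higher. Cldn6, a claudin of early embryonic epithelia, had 611 in PB-Gbx2 and 895 in PB, 1.46-fold lower. Cldn12 was nearly level, at 454 in PB-Gbx2 and 441 in PB.

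Per kilobase of transcript, Cldn4 was the highest claudin in PB-Gbx2 at 818, ahead of Cldn6 at 377. In PB the levels per kilobase were close to each other, 546 for Cldn4 and 552 for Cldn6. The 2 main claudins thus differed in opposite directions, while the summed level of the 9 claudins was 2775 in PB-Gbx2 and 2717 in PB. Each of these ratios is near 1.5-fold.

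The remaining claudins were low. Cldn9 had 20 in PB-Gbx2 and 57 in PB (2.85-fold lower), and Cldn20 had 10 in PB-Gbx2 and 24 in PB (2.40-fold lower). With 5 added to each level, the log2 ratio of Cldn20 was -0.95, short of 2-fold. Cldn19, known from kidney and nerve, had 39 in PB-Gbx2 and 13 in PB (3-fold higher). Cldn3 had 36 in PB-Gbx2 and 51 in PB, and the endothelial Cldn5 had 64 in PB-Gbx2 and 48 in PB. Over the 9 claudins the median log2 ratio was -0.49, with 4 above 0 and 5 below.

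Among the scaffolds of the tight junction, Tjp3 stood apart from Tjp1. Tjp3 had a level of 398 in PB-Gbx2 and 882 in PB, 2.22-fold lower. Tjp1, which encodes the first described zonula occludens protein, had 2996 in PB-Gbx2 and 3928 in PB, 1.31-fold lower. Ocln, the gene of the strand protein occludin, had 98 in PB-Gbx2 and 110 in PB. F11r, which encodes the junctional adhesion molecule JAM-A, had 1368 in PB-Gbx2 and 1150 in PB.

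Epcam encodes a surface glycoprotein of stem cells and epithelia that binds the Cldn7 product. Its level was 1288 in PB-Gbx2 and 2050 in PB, 1.59-fold lower. Epcam, Cldn7 and Tjp3 were thus all lower in PB-Gbx2, whereas Cldn4 and F11r were higher by at most 1.5-fold.

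The bases before the start sites of Cldn7, Tjp3, Epcam and Cldn4 are shown because the first 2 are the members lower by 2-fold that reached 100, and because Epcam and Cldn4 are epithelial partners that differed in opposite directions. The sequences are from RefSeq, build GRCm38.p6, each 250 bases read towards the gene, and capitals mark CAGGTG or its reverse complement CACCTG, a 6-base E-box that repressors of the Snail and Zeb families are known to bind. The positions are chr11:69965171-69965420 on the plus strand for Cldn7, chr10:81291268-81291517 on the minus strand for Tjp3, chr17:87635729-87635978 on the plus strand for Epcam and chr5:134946935-134947184 on the minus strand for Cldn4.
Cldn7: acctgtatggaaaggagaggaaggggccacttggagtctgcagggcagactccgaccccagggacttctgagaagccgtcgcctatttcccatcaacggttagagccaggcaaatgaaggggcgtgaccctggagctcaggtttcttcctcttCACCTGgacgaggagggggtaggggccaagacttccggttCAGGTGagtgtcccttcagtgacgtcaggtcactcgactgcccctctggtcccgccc
Tjp3: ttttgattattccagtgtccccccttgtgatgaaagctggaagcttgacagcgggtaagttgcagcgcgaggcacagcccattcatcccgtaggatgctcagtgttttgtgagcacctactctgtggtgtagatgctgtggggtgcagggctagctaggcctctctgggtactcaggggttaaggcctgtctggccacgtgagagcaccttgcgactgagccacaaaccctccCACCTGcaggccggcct
Epcam: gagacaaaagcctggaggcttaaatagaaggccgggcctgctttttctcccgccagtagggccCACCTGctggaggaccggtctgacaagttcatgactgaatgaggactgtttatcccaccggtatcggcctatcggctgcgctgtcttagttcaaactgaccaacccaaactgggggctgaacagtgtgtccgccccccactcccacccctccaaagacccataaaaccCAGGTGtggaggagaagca
Cldn4: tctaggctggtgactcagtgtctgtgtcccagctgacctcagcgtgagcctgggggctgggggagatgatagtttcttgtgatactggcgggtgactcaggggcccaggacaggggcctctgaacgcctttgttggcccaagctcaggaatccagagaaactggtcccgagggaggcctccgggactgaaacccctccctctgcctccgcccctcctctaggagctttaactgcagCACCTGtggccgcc
The Cldn7 and Epcam windows hold 2 matches each, and the Tjp3 and Cldn4 windows hold 1 each. A further start listed for Tjp3 also has 1 match, and a further start listed for Cldn7 has none.

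Of the 46 genes, 24 have an entry in the promoter table, and 8 of those 24 (33.3%) hold this E-box, on either strand, before at least 1 start: Cldn4, Cldn6, Cldn7, Epcam, F11r, Gjb1, Ocln and Tjp3. Of all 10404 genes listed in the expression table with an entry, 19.3% hold it, and of all 32851 promoters 17.2%. The 8 include genes that were higher and genes that were lower in PB-Gbx2. Genes without an entry, among them Cdh1, Cdh3, Gjc1 and Pkp2, were not searched. The letters TAATTA, a core that homeodomain proteins such as Gbx2 are known to bind, occur in none of the 24, against 3.04% of the listed genes and 4.84% of all promoters. No match says only that these letters are not in this window.

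**Figure D2:**
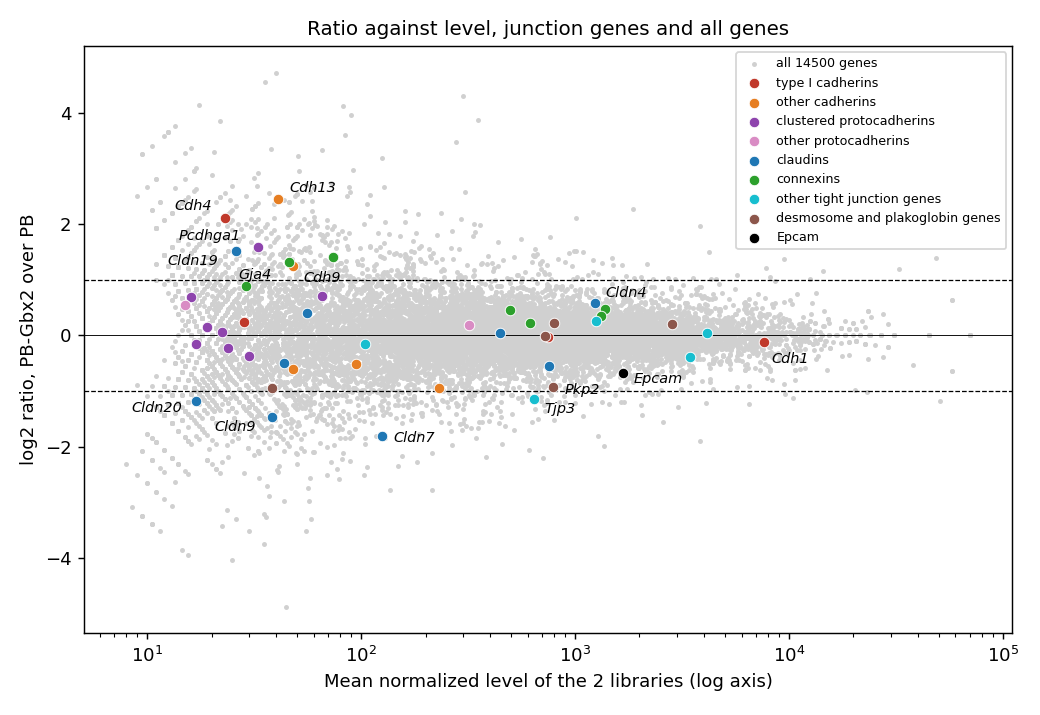
Log2 ratio of PB-Gbx2 over PB against the mean normalized level (log axis) for all 14500 genes in grey and the 46 junction genes coloured by class, with dashed lines at 2-fold. Most junction genes past a dashed line lie at low mean levels, where the grey cloud is widest, and Tjp3 and Cldn7 lie below the lower line.

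Connexins had 1 direction throughout: all 7 were higher in PB-Gbx2, where 49.2% of all genes had a log2 ratio above 0. Gja1, the most widely distributed connexin gene, had a level of 1476 in PB-Gbx2 and 1155 in PB, 1.28-fold higher. Gjc1, a connexin gene of the early embryo and heart, had 1602 in PB-Gbx2 and 1162 in PB, 1.38-fold higher. Each of these differences is below 1.5-fold.

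Gjb5, a beta connexin gene typical of trophoblast and skin, had 576 in PB-Gbx2 and 420 in PB, 1.37-fold higher. Gja4, an endothelial and oocyte connexin gene, had 66 in PB-Gbx2 and 26 in PB (2.54-fold higher). Gjb1, on the X chromosome, had 38 in PB-Gbx2 and 20 in PB (1.90-fold higher). The connexin genes with the larger ratios here were thus those at low levels.

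Over the 7 connexins, the median log2 ratio was 0.46 and the summed level was 4528 in PB-Gbx2 and 3392 in PB. Per kilobase of transcript, Gjc1 stood at 469, Gja1 at 380 and Gjb5 at 335 in PB-Gbx2. In PB, Gjc1 stood at 340, Gja1 at 297 and Gjb5 at 244 per kilobase. Gjc1 was the highest connexin per length in both libraries.

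Plakoglobin and the desmosome genes were mixed. Jup, the gene of plakoglobin, which is found in both adherens junctions and desmosomes, had a level of 3042 in PB-Gbx2 and 2644 in PB, 1.15-fold higher. Dsp, the gene of the plakin desmoplakin, had 719 in PB-Gbx2 and 726 in PB, 1.01-fold lower. Pkp2, a plakophilin gene, had 546 in PB-Gbx2 and 1040 in PB, 1.90-fold lower.

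Of the desmosomal cadherin genes, Dsg2 had 861 in PB-Gbx2 and 736 in PB, 1.17-fold higher, and Dsc2 had 26 in PB-Gbx2 and 51 in PB, 1.96-fold lower. None of the 5 genes of this class reached 2-fold, against 10.4% of all genes in either direction. Pkp2 and Dsc2 came closest to 2-fold, and the class median was -0.01.

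**Figure D3:**
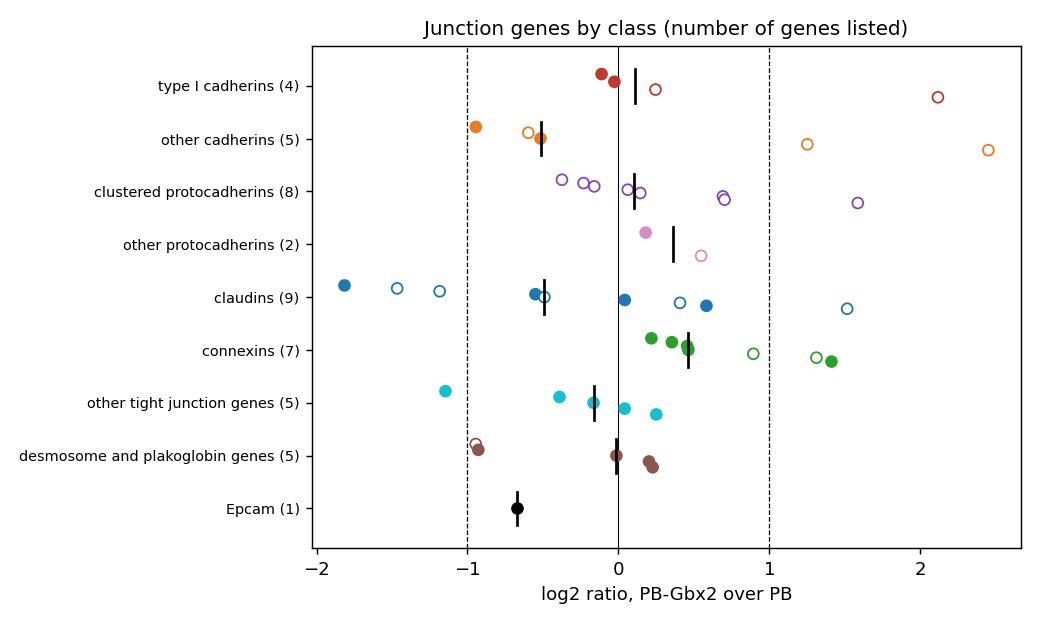
Log2 ratio of PB-Gbx2 over PB for each junction gene by class, with filled points for genes at 100 or more in at least 1 library, open points for the others, a bar at the class median and dashed lines at 2-fold. All 7 connexins lie right of 0, while the 9 claudins run from -1.81 to 1.51.

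In the authors' deposited table, 3 of the 46 genes have a p-value under 0.05: Tjp3 (0.00690), Cldn7 (0.0183) and Pkp2 (0.0205), all lower in PB-Gbx2. Over all genes of the authors' deposited table, 3.74% have a p-value under 0.05. The adjusted p-values in the authors' deposited table are 0.538 for Tjp3, 0.921 for Cldn7, 0.983 for Pkp2 and 1 for the other 43 genes. These p-values rest on 1 library per group.

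Among partners of the cadherins, Ctnnb1, Ctnna1 and Ctnnd1 differed by at most 1.20-fold between the libraries, while Mllt4 and Ctnnd2 differed more. Ctnnb1, the gene of beta-catenin, had 13630 in PB-Gbx2 and 11378 in PB, Ctnna1, that of alpha-catenin, had 14256 in PB-Gbx2 and 15394 in PB, and Ctnnd1, that of p120-catenin, had 300 in PB-Gbx2 and 298 in PB. Mllt4, the gene of afadin, which links nectins to actin, had 2484 in PB-Gbx2 and 3851 in PB, 1.55-fold lower. Ctnnd2, a neuronal catenin gene, had 36 in PB-Gbx2 and 6 in PB. It was the member past 2-fold among the 7 listed genes (1 of 7, all genes 10.4% in either direction). Both levels of Ctnnd2 lie below 100, where 27.5% of all genes passed 2-fold in either direction. The median log2 ratio of the 7 was 0.01.

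Among other genes of the cadherin superfamily, 9 of 18 had a row, and 1 of them passed 2-fold in each direction, against 10.4% of all genes in either direction. Cdhr1, a photoreceptor cadherin gene, had 76 in PB-Gbx2 and 216 in PB, 2.84-fold lower. Fat2 had 62 in PB-Gbx2 and 30 in PB, and its log2 ratio was 0.94 with 5 added to each level in place of 1, short of 2-fold. The large atypical cadherin gene Fat1 had 3688 in PB-Gbx2 and 3633 in PB. All 5 genes of cadherin processing reached 100 in at least 1 library. None of them passed 2-fold, against 4.83% of all genes at such levels and the same 10.4% of all genes. Their median was -0.04. They include the sheddase gene Adam10 and the convertase gene Furin.

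None of the 11 listed partners of tight junctions passed 2-fold, against 10.4% of all genes, 8 of the 11 were below 0, against 48.9% of all genes, and the median log2 ratio was -0.31. The plaque proteins cingulin and paracingulin link the junction to actin and microtubules: Cgn had 945 in PB-Gbx2 and 1520 in PB, 1.61-fold lower, and Cgnl1 had 1352 in PB-Gbx2 and 2299 in PB, 1.70-fold lower. Jam2, a junctional adhesion molecule gene, had 4150 in PB-Gbx2 and 2225 in PB, 1.87-fold higher. All 13 genes of the polarity complexes reached 100 in at least 1 library. None of the 13 passed 2-fold, against 4.83% of all genes at such levels and the same 10.4% of all genes. Their median was -0.01. Crb3, the gene of the apical Crumbs protein of epithelia, had 271 in PB-Gbx2 and 486 in PB, 1.79-fold lower, and Inadl, which encodes its partner PATJ, had 78 in PB-Gbx2 and 142 in PB, 1.82-fold lower.

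All 5 further desmosome genes with a row reached 100 in at least 1 library. None of them passed 2-fold, against 4.83% of all genes at such levels and 10.4% of all genes in either direction. Pkp3 had 188 in PB-Gbx2 and 328 in PB, and Ppl, the gene of periplakin, had 182 in PB-Gbx2 and 333 in PB, whereas Perp, a p53 target whose product sits in desmosomes, had 496 in PB-Gbx2 and 262 in PB. The pannexin gene Panx1, a channel gene related to connexins, had 237 in PB-Gbx2 and 166 in PB.

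The transcription and splicing factors that set epithelial gene expression had 13 of 15 genes listed. In PB-Gbx2, 1 was higher by 2-fold or more and 2 were lower by as much, against 5.14% and 5.26% of all genes. Esrp1, which directs epithelial splicing, had a level of 169 in PB-Gbx2 and 536 in PB, 3.17-fold lower, and the authors' deposited table gives it an adjusted p of 0.202. Grhl2, a grainyhead-like activator of epithelial junction genes, had 161 in PB-Gbx2 and 318 in PB, 1.98-fold lower. Snai1, a repressor of Cdh1 in mesenchymal transitions, had 154 in PB-Gbx2 and 76 in PB, 2.03-fold higher. With 5 added to each level, the log2 ratio of Snai1 was 0.97, also short of 2-fold.

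Zeb1, a repressor of the same kind, had 344 in PB-Gbx2 and 199 in PB, 1.73-fold higher. Ovol1 was past 2-fold, at 9 in PB-Gbx2 and 20 in PB, but its log2 ratio was -0.84 with 5 added to each level. Grhl3 had 1260 in PB-Gbx2 and 974 in PB, and Elf3 had 1610 in PB-Gbx2 and 1148 in PB, both higher. The list joins 5 repressors of epithelial genes (Snai1, Snai2, Snai3, Twist1 and Zeb1), all above 0, with 8 other factors, of which 4 were above 0 and 4 below. Of all genes, 49.2% were above 0. Twist1 had 26 in PB-Gbx2 and 16 in PB, Snai2 had 32 in PB-Gbx2 and 22 in PB, and Snai3 had 125 in PB-Gbx2 and 110 in PB. Both levels of Twist1 and of Snai2 lie below 100, where ratios scatter most. The 5 had a median log2 ratio of 0.67, the value of Twist1, and the 8 one of 0.11. This split was made after the values were seen.

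**Figure D4:**
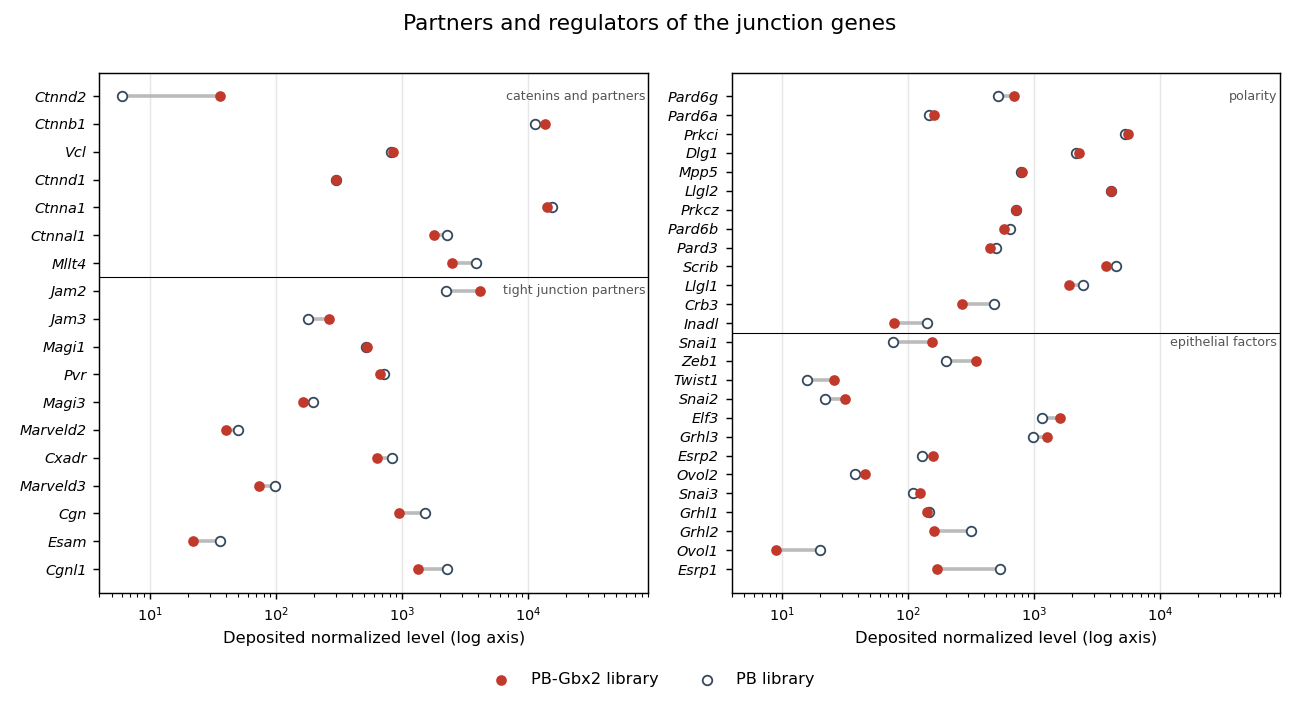
Deposited normalized level (log axis) of catenins and partners, tight junction partners, polarity genes and epithelial factors, with filled points for the PB-Gbx2 library and open points for the PB library. Most catenin and polarity genes have overlapping points, while Esrp1, Grhl2, Crb3, Cgn and Cgnl1 have the filled point on the left and Snai1, Zeb1 and Jam2 have it on the right.

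Markers of other cell types bear on these values, since in bulk RNA a change in the share of cells of a type and a change in RNA per cell cannot be told apart. The 7 pluripotency markers were all listed, with a summed level of 118785 in PB-Gbx2 and 91342 in PB. Nanog had 19872 in PB-Gbx2 and 8918 in PB, and Zfp42 had 16671 in PB-Gbx2 and 8320 in PB. Both were at least 2-fold higher, against 5.14% of all genes. Of the 7 log2 ratios, 5 were above 0 and 1 was below. The fibroblast or feeder list had 4 of 8 genes with a row and a sum of 1032 in PB-Gbx2 and 1633 in PB. Most of this sum came from Thy1 and Pdgfrb. Of the 4 genes, 1 was above 0 and 3 were below, and Col3a1, Lum, Dcn and Postn had no row. The trophectoderm list had 3 of 7 genes and a sum of 2658 in PB-Gbx2 and 1612 in PB, nearly all of it Tfap2c. Of the 3 genes, 2 were above 0, while Krt7 was lower, at 4 in PB-Gbx2 and 43 in PB. Cdx2, Gata3, Elf5 and Hand1 had no row. Primitive endoderm markers had 4 of 6 genes with a row, all 4 above 0, and summed to 294 in PB-Gbx2 and 165 in PB. Neural markers had 4 of 5 and summed to 1972 in PB-Gbx2 and 2419 in PB, with 2 of the 4 higher and 2 lower. Mesoderm markers had 3 of 5 and summed to 404 in PB-Gbx2 and 106 in PB. All 3 were at least 2-fold higher, against 5.14% of all genes. Kdr had 226 in PB-Gbx2 and 24 in PB, and T had 24 in PB-Gbx2 and 6 in PB. Both levels of T lie below 100, where 27.5% of all genes passed 2-fold in either direction. Snai1, also among the epithelial factors, had 154 in PB-Gbx2 and 76 in PB. With 5 added to each level, its log2 ratio was 0.97, short of 2-fold. The part of such cells in the ratios of Cdh13, Cdh4, Gja4 and Cldn7 was not tested.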

How the data were processed

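RNA was sequenced from 2 cultures with a TruSeq RNA kit, per the labels' protocols. STAR and build mm9 are named in the submitters' processing notes, while the sources used here do not name the annotation, the counter or the normalization step. The levels deposited by the authors are normalized scores rounded to whole numbers: sorted values are identical in all 14501 rows of both libraries (sum 16528899 each), so they were not treated as read counts. Depth is unknown, and no counting interval could be given. A ratio and a log2 ratio of PB over PB-Gbx2, and p-values, were deposited by the authors beside the levels, and of these only the p-values are quoted.

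Rows with a repeated symbol were summed, leaving 14500. Ratios were computed on log2(level + 1), which understates changes of low genes, and calls needed 2-fold. Levels per kilobase use the longest transcript per symbol in GENCODE M21, found for all 46 genes; the authors' gene models may differ. Promoter letters were searched in the 250 bases before each RefSeq start. Named by rule were members past 2-fold that reached 100, members that reached 1000, the highest and most divergent member of each class, 9 set genes and partner genes past 2-fold that reached 100; all others were named after their values were seen, and a few genes are not reported here by name. The members and lists were chosen with earlier results of these data known. Alternatives were pseudocounts of 0.1 and 5, minimum levels of none and 100, rescaling by medians, a 1.5-fold threshold and leaving out clustered protocadherins. Python 3.11.15, numpy 2.4.6 and pandas 2.3.3 were used.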

Additional observations from a re-analysis of the deposited data

How the results depend on the processing

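With a minimum level of 100 in either library, 1 of the junction genes was at least 2-fold higher and 2 were at least 2-fold lower in PB-Gbx2, in place of 7 and 4. By class, this left 0 type I cadherins, 0 other cadherins, 0 claudins and 1 connexin higher, and 1 claudin lower. No clustered protocadherin reached 100, so that class has no value there. At a 1.5-fold threshold, 9 junction genes were lower, among them 2 other cadherins and 2 desmosome genes, and 3 clustered protocadherins were higher. Without the clustered protocadherins, a setting chosen after seeing the data, both counts stayed within 1.5 times the reported ones. Of 147 results for counts and class medians under all settings, 136 moved by at most 1.5-fold, as did 122 of 136 for the partner lists and all 118 for single junction genes. A pseudocount of 5 ended the 2-fold call of Cldn20 among the junction genes and of Fat2, Ovol1 and Snai1 among the partners. Rescaling by medians and dropping the minimum level changed nothing by construction, since both libraries share one distribution and every gene reaches a level of 1. The totals above include both settings, each with 26 of the 147 results, 24 of the 136 and 25 of the 118. A minimum level of 100 cannot alter the ratio of a single gene either, and it gave 18 of the 118. The totals are therefore no measure of robustness. No paired analysis was possible because there is 1 library for each vector, which also means that leaving out a library was not possible.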
